A study of Rattus norvegicus with 8 samples.

Results

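The genes described here are 39 enzymes, transporters and regulators that carry glucose to lactate or through the citric acid cycle, measured by mRNA sequencing in the striatum of methamphetamine (METH) self-administered rats and saline self-administered rats. They were chosen by name, with earlier results of these data known, from glucose uptake to malate dehydrogenase. All 39 are listed among the 17337 genes of the count table. Of these, 37 were found under the same symbol, Idh3b under other capitals and Pcx, pyruvate carboxylase, under its synonym Pc. All 39 also passed the filter on low counts, which left 12014 genes for testing.

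Both groups were male Sprague-Dawley rats labelled wild type, with 4 rats in each. METH rats pressed a lever for intravenous infusions of 0.05 mg/kg METH in sessions of 2 h over 16 days, and saline rats received saline on the same schedule after the same food training and catheter surgery, so both groups carry the effects of these procedures. Rats with a stable response were chosen at the end from a larger number of trained rats, and the time between the last session and tissue collection is not given in the sources used here. Each library is the striatum of 1 rat as a whole, a mixture of neurons, glia and vessels, in which fewer cells of a type and less RNA per cell cannot be told apart.

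Glycolysis breaks glucose into pyruvate in the cytosol, with the kinase steps of hexokinase and phosphofructokinase as its main points of control. Pyruvate is either reduced to lactate by lactate dehydrogenase or carried into mitochondria, where the pyruvate dehydrogenase complex turns it into acetyl-CoA for the citric acid cycle. Brain tissue depends mostly on glucose for energy, with neurons and astrocytes using partly different isoforms of these enzymes.

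Total counts per rat ranged from 18135939 to 21211920, and the members took between 1.44% and 1.58% of the counts of a library. Levels are given in CPM, the counts scaled to a common library size with TMM factors, and are not divided by gene length, so they compare rats but not genes. On the main axis of variation over all genes, which held 26.4% of the variance, METH 3 stood at 39.5 while the other METH rats lay between 0.257 and 5.29 and the saline rats between -24.6 and -4.17. METH 3 was the highest rat for 12 and the lowest for 7 of the 39 members, and for 2777 and 2683 of the 12014 genes tested. The labelled tissue was checked with 10 markers of striatal projection neurons, among them Drd1, Drd2 and Ppp1r1b, whose summed level was 14830 to 15847 CPM in saline rats and 15645 to 19614 CPM in METH rats, with METH 3 the highest. A large part of this sum was Ppp1r1b, at 6785 to 7594 CPM in saline rats and 10288 CPM in METH 3. Drd1 was at 451 to 515 CPM in saline rats and 450 CPM in METH 3. Summed neuronal markers lay at 3054 to 3599 CPM in saline rats and 2765 to 3131 CPM in METH rats.

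None of the 39 members was called different between METH and saline rats by the edgeR quasi-likelihood test at an FDR below 0.05 and a mean log2 CPM over 1, a call made for 62 of the 12014 genes, or 0.516%. The lowest FDR among the members was 0.431. At an unadjusted p below 0.05, 1 member was higher in METH rats, Eno1, and none was lower, where 6.26% of all genes tested were higher and 4.88% lower. DESeq2 also called none and placed 1 member at an unadjusted p below 0.05. Of the 14398 genes with a DESeq2 p-value, 5.7% were higher and 4.64% lower at that level. In no member did the 4 METH rats lie wholly apart from the 4 saline rats, a separation found upwards in 3.75% and downwards in 2.65% of all genes tested. The log2 fold changes, METH against saline, were positive for 23 and negative for 16 members (15 and 24 with total-count scaling, 20 and 19 with upper-quartile scaling), with a median of 0.01 beside -0.0055 for all genes tested. Their median size without regard to sign was 0.09, beside 0.12 for all genes tested.

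**Figure D1:**
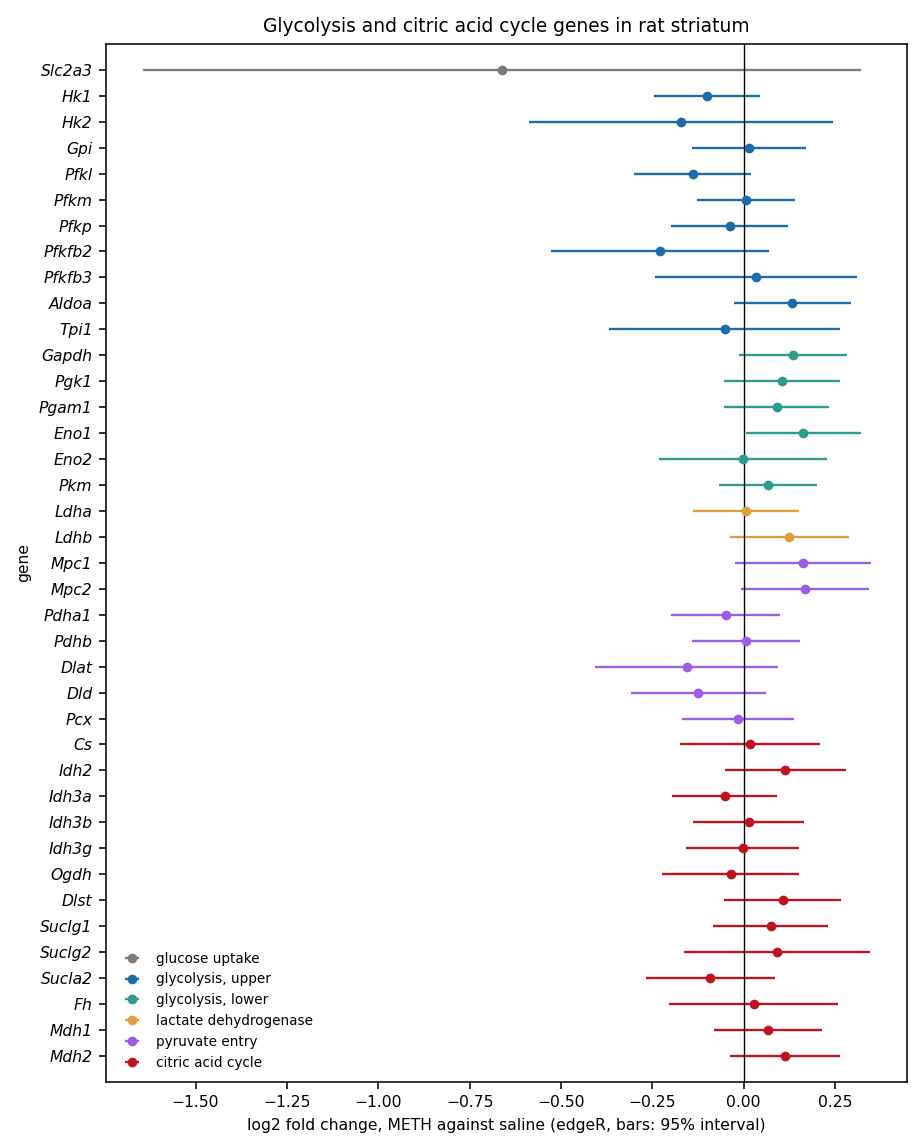
Log2 fold change of each member gene (METH against saline, edgeR) on the horizontal axis, with genes in pathway order on the vertical axis, coloured by role; bars are 95% intervals and the vertical line marks no difference. Points lie between -0.66 for Slc2a3, whose bar is by far the widest, and 0.17 for Mpc2, and the bar of Eno1 alone leaves out 0.

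The intervals set a limit on how large a difference these 8 rats leave room for. For 31 of the 39 members the whole 95% interval of the fold change lay within 1.25-fold in either direction, which held for 34.6% of all genes tested. Within 1.5-fold lay 37 members, all but Hk2 and Slc2a3, beside 70.8% of all genes tested. Within 2-fold lay 38 members, all but Slc2a3, beside 88.0% of all genes tested. The median SD of log2 CPM between rats was 0.092 over the members in saline rats and 0.075 in METH rats. Over all genes tested it was 0.16 and 0.17. Neither this comparison nor that of the intervals was matched for count level. The members with the fewest counts had wide standard errors, 0.46 for Slc2a3, 0.19 for Hk2 and 0.15 for Tpi1. The median over the members was 0.074.

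Glucose uptake was represented by Slc2a3, the glucose transporter GLUT3 known from neurons. It was barely detected, with 8 to 26 counts per rat. Its level was 1.32, 0.40, 1.11 and 1.23 CPM in saline rats 1 to 4 and 0.587, 0.809, 0.678 and 0.474 CPM in METH rats 1 to 4. Saline 2 had the lowest level of all 8 rats, the other saline rats had the highest, and the groups overlapped through saline 2. On the log2 scale the difference was -0.66 with a standard error of 0.46 (FDR = 0.595, edgeR quasi-likelihood test). The 95% interval ran from -1.645 to 0.32. At these counts neither a decrease of more than 2-fold nor a small increase can be told from no difference. The cause of the low counts was not tested. Slc2a3 was also the only member whose mean log2 CPM, -0.11, was under the threshold of 1 for a call.

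The upper part of glycolysis, from hexokinase to triose phosphate isomerase with the enzymes that make its regulator fructose 2,6-bisphosphate, held 10 members, 4 with a positive and 6 with a negative fold change (1 and 9 with total-count scaling) and a median log2 fold change of -0.045. The member with the largest difference by size was Pfkfb2, a maker of fructose 2,6-bisphosphate. It stood at 20.9, 22.0, 22.4 and 16.3 CPM in saline rats and at 15.6, 17.8, 15.2 and 21.03 CPM in METH rats. Saline 4 lay with the lower METH rats and METH 4 with the higher saline rats, and the log2 fold change of -0.23 (SE 0.14) did not pass the test (FDR = 0.539). Pfkfb3, the isoform known for high kinase activity, had means of 26.9 ± 3.82 CPM (SD, n = 4) in saline and 27.5 ± 3.90 CPM in METH rats.

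The 3 subunit genes of phosphofructokinase, the committed step of glycolysis, were all measured and none passed the test. Pfkl, the liver type, was at 206, 191, 205 and 209 CPM in saline rats and at 177, 178, 204 and 178 CPM in METH rats. Here 3 METH rats lay below every saline rat and METH 3 lay among the saline rats. Pfkl had a log2 fold change of -0.14 (SE 0.074, 95% interval -0.30 to 0.02, FDR = 0.492) with an exact permutation p of 0.0571, and without METH 3 it was -0.19 (FDR = 0.488), there at an unadjusted p below 0.05. Pfkm, the muscle type, was nearly level at 701 ± 24.5 CPM (SD, n = 4) in saline and 704 ± 13.2 CPM in METH rats, a log2 fold change of 0.0056 with a 95% interval from -0.13 to 0.14. Pfkp, the platelet type, was at 369.7 ± 30.6 and 359.9 ± 9.58 CPM. As a change between groups only, the log2 ratio of Pfkl to Pfkm counts was between -1.82 and -1.76 in saline rats and between -2.01 and -1.81 in METH rats, overlapping through METH 3 alone.

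Hk1, the main hexokinase of brain, had a log2 fold change of -0.10 (FDR = 0.581). Its levels of 349 to 358 CPM in METH rats lay in a narrow band with an SD of 3.87 CPM, while saline rats covered 355 to 407 CPM with an SD of 21.8 CPM, and saline 4 lay within the METH band. Hk2, the inducible hexokinase, was much more variable at 8.76 ± 1.90 CPM in saline and 7.77 ± 1.31 CPM in METH rats, with a log2 fold change of -0.17 that was -0.06 without METH 3. Gpi, which turns glucose 6-phosphate into fructose 6-phosphate, had a log2 fold change of 0.01 (95% interval -0.14 to 0.17). Aldoa, an aldolase, stood at 1823 ± 124 CPM in saline and 1999 ± 155 CPM in METH rats, with METH 3 at 2229 CPM above all other rats (log2 fold change 0.13, FDR = 0.509). Tpi1, triose phosphate isomerase, was listed at only 143 to 216 counts per rat, and its log2 fold change was -0.05 with a wide 95% interval of -0.37 to 0.26.

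The lower part of glycolysis, from glyceraldehyde 3-phosphate to pyruvate, yields the ATP and NADH of the pathway. Of its 6 members 5 had a positive fold change, and the median log2 fold change was 0.097. Eno1, the broadly expressed enolase, had the lowest edgeR p of all members. By the exact permutation test Hk1, Pfkl and Idh2 had a lower p, 0.0571, than Eno1. Eno1 was at 945, 906, 817 and 922 CPM in saline rats and at 1054, 912, 1053 and 1001 CPM in METH rats. METH rats 1, 3 and 4 were above every saline rat, and METH 2 lay below saline 1 and saline 4. The means were 897 ± 56.2 CPM (SD, n = 4) and 1005 ± 66.8 CPM (SD, n = 4), a difference of 11.99% by the fitted fold change. The log2 fold change was 0.16 (SE 0.073, 95% interval 0.0051 to 0.32, p = 0.044, FDR = 0.431, edgeR), and the two-sided exact permutation test over the 70 labelings gave p = 0.0857, where the smallest it can give is 0.0286. The p rose above the threshold of 0.05 when any of saline 2, saline 3, saline 4, METH 1, METH 3 or METH 4 was left out, with log2 fold changes of 0.12 to 0.21 over all 8 omissions.

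Eno2, the neuronal enolase, was at 15.9 ± 0.90 CPM (SD, n = 4) in saline and 15.9 ± 0.56 CPM in METH rats, with a log2 fold change of -0.00084 whose 95% interval of -0.23 to 0.23 includes the value of Eno1. It was listed at 278 to 356 counts per rat. Gapdh, which oxidises glyceraldehyde 3-phosphate and often serves as a reference gene in quantitative PCR, was at 2199, 1991, 1864 and 1992 CPM in saline rats and at 2224, 2115, 2349.6 and 2153 CPM in METH rats. Its METH rats exceeded every saline rat but saline 1, which lay above METH 2 and METH 4. The log2 fold change of Gapdh was 0.14 (95% interval -0.01 to 0.28, FDR = 0.474). Pgk1, phosphoglycerate kinase, and Pgam1, phosphoglycerate mutase, had log2 fold changes of 0.10 (FDR = 0.605) and 0.09 (FDR = 0.630), and Pkm, pyruvate kinase, had 0.07 with means of 1349 ± 57.9 and 1414 ± 36.4 CPM (FDR = 0.703).

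**Figure D2:**
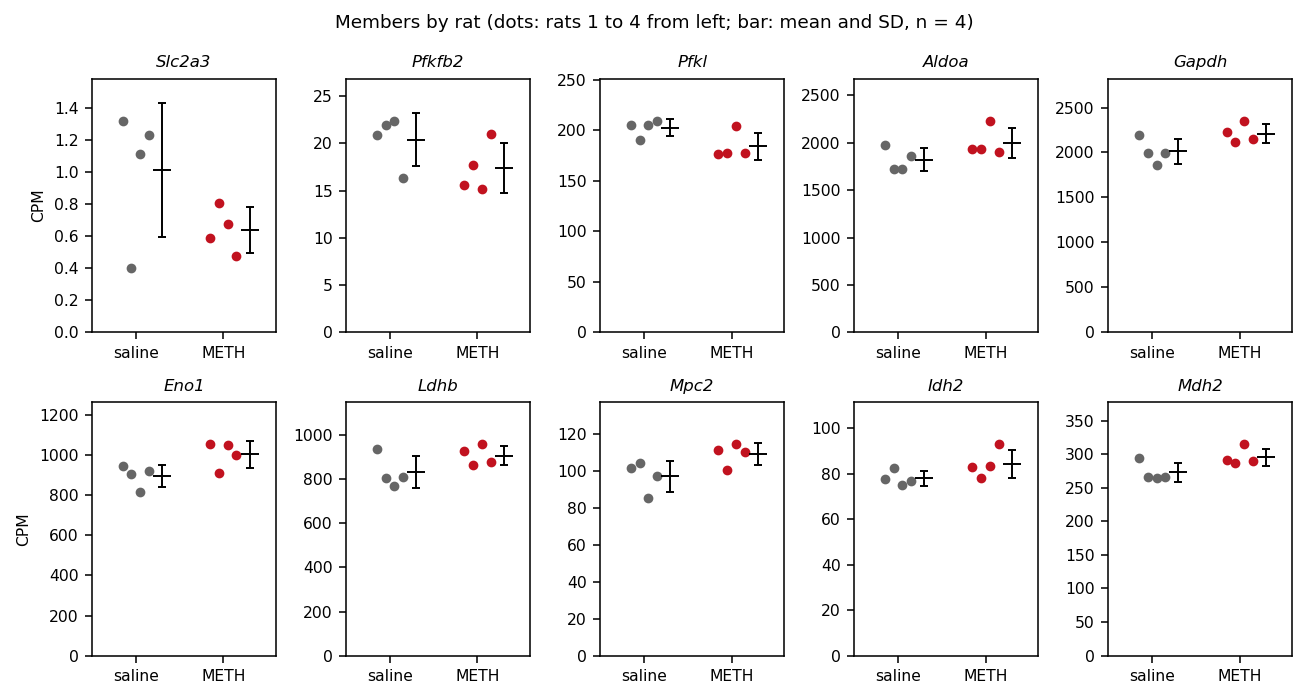
Level in CPM, on vertical axes from 0, of 10 members in each rat, with saline rats grey and METH rats red, rats 1 to 4 from left to right in each group, and a bar for the mean and SD (n = 4). Eno1 shows 3 METH rats above all saline rats and METH 2 among them, Pfkl shows METH 3 apart from the other METH rats, and the groups overlap in every panel.

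Ldhb, the subunit that favours the use of lactate, stood at 939, 808, 769.8 and 812 CPM in saline rats and at 929, 864, 958 and 879 CPM in METH rats. All METH rats were above saline rats 2 to 4, and saline 1 lay among them. For Ldhb the log2 fold change was 0.12 (SE 0.076, FDR = 0.542). Ldha, the subunit that favours the making of lactate, was at 421 ± 20.3 CPM (SD, n = 4) in saline and 423 ± 17.6 CPM in METH rats, with a log2 fold change of 0.0065 (95% interval -0.14 to 0.15). Their log2 ratio, Ldha to Ldhb, ran from -1.06 to -0.92 in saline rats and from -1.16 to -1.01 in METH rats, so the groups overlapped.

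Pyruvate entry held 7 members, 3 with a positive and 4 with a negative fold change (2 and 5 with total-count scaling). The carrier subunits had the largest positive values, and Dlat and Dld of the enzyme complex the largest negative ones. Mpc1 and Mpc2 form the mitochondrial pyruvate carrier. Mpc2 was at 102, 104, 85.4 and 97.4 CPM in saline rats and at 111, 101, 114 and 110.4 CPM in METH rats. Its METH rats other than METH 2 were above every saline rat. The log2 fold change of Mpc2, 0.17, was the largest positive value among the members (SE 0.081, 95% interval -0.0069 to 0.34, FDR = 0.463), and that of Mpc1 was 0.16 (FDR = 0.491) with 164 ± 14.7 CPM in saline and 184 ± 14.9 CPM in METH rats. Because both subunits were lowest in saline 3, at 144 CPM for Mpc1 and 85.4 CPM for Mpc2, their log2 fold changes without that rat were 0.10 and 0.11.

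Of the pyruvate dehydrogenase complex, Pdha1 and Pdhb encode the decarboxylase subunits, Dlat the acetyltransferase and Dld the dehydrogenase that other complexes share. Pdha1 was at 191 ± 7.61 CPM (SD, n = 4) in saline and 185 ± 8.59 CPM in METH rats, and Pdhb at 164 ± 8.23 and 165 ± 4.13 CPM. Dlat and Dld had log2 fold changes of -0.16 (SE 0.12, FDR = 0.630) and -0.12 (SE 0.086, FDR = 0.597). For both, METH 3 was the lowest of all rats, at 70.9 CPM for Dlat and 97.3 CPM for Dld. Pcx, which makes oxaloacetate from pyruvate and is known from astrocytes, differed by -0.02 on the log2 scale (95% interval -0.17 to 0.14).

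The 13 citric acid cycle members included 9 with a positive and 4 with a negative fold change (6 and 7 with total-count scaling) and had a median log2 fold change of 0.03. None reached an unadjusted p below 0.05, and the lowest FDR was 0.546. Mdh2, the mitochondrial malate dehydrogenase, had the largest difference by size. It was at 295, 267, 265 and 266 CPM in saline rats and at 291, 287, 315 and 289.5 CPM in METH rats. Saline 1 lay above 3 of the METH rats, and all METH rats were above the other 3 saline rats. Its log2 fold change was 0.11 (SE 0.070, FDR = 0.546), and Mdh1, its cytosolic counterpart in the malate-aspartate shuttle, had 0.07 (FDR = 0.740).

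Idh2, the NADP-dependent mitochondrial isocitrate dehydrogenase, was close behind Mdh2, at 78.0 ± 3.18 CPM (SD, n = 4) in saline and 84.4 ± 6.15 CPM in METH rats, with METH 4 at 92.9 CPM the highest rat. The NAD-dependent enzyme showed smaller values. Idh3a, its catalytic subunit, had a log2 fold change of -0.05, Idh3b 0.01 and Idh3g -0.0029, all with 95% intervals between -0.20 and 0.17. Cs, citrate synthase, was at 184 ± 17.7 and 187 ± 16.2 CPM (log2 fold change 0.02, FDR = 0.963).

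The oxoglutarate dehydrogenase complex and succinyl-CoA ligase divided in sign between their own subunits. Ogdh, the dehydrogenase, had -0.04 and Dlst, the transferase of the same complex, had 0.11 on the log2 scale (FDR = 0.907 and 0.596). Suclg1, the shared subunit of succinyl-CoA ligase, had 0.07, Suclg2, the subunit specific for GTP, had 0.09, and Sucla2, the subunit specific for ATP, had -0.09, with FDR values of 0.697 to 0.798. Fh, fumarase, was at 60.6 ± 8.82 CPM in saline and 61.8 ± 5.71 CPM in METH rats.

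The rats were also compared over all members together, a median in which opposite differences cancel. The median over the 39 members of the log2 level above the saline mean was 0.083 in saline 1, the highest of all 8 rats, and -0.031, -0.052 and 0.01 in saline rats 2 to 4. In METH rats 1 to 4 it was 0.037, 0.015, 0.028 and 0.00038, all inside the saline range. Saline 1 was the highest rat for 10 members, and saline 3 was the lowest for 14. Without saline 1, 4 members had an unadjusted p below 0.05, all higher in METH rats, namely Aldoa, Gapdh, Eno1 and Ldhb, where 5.93% of all genes tested without that rat were higher at this level. Without METH 2 there were 3, namely Eno1, Mpc1 and Mpc2, beside 5.99% of all genes tested. None of the members was called with any single rat left out, and the lowest FDR there was 0.344.

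**Figure D3:**
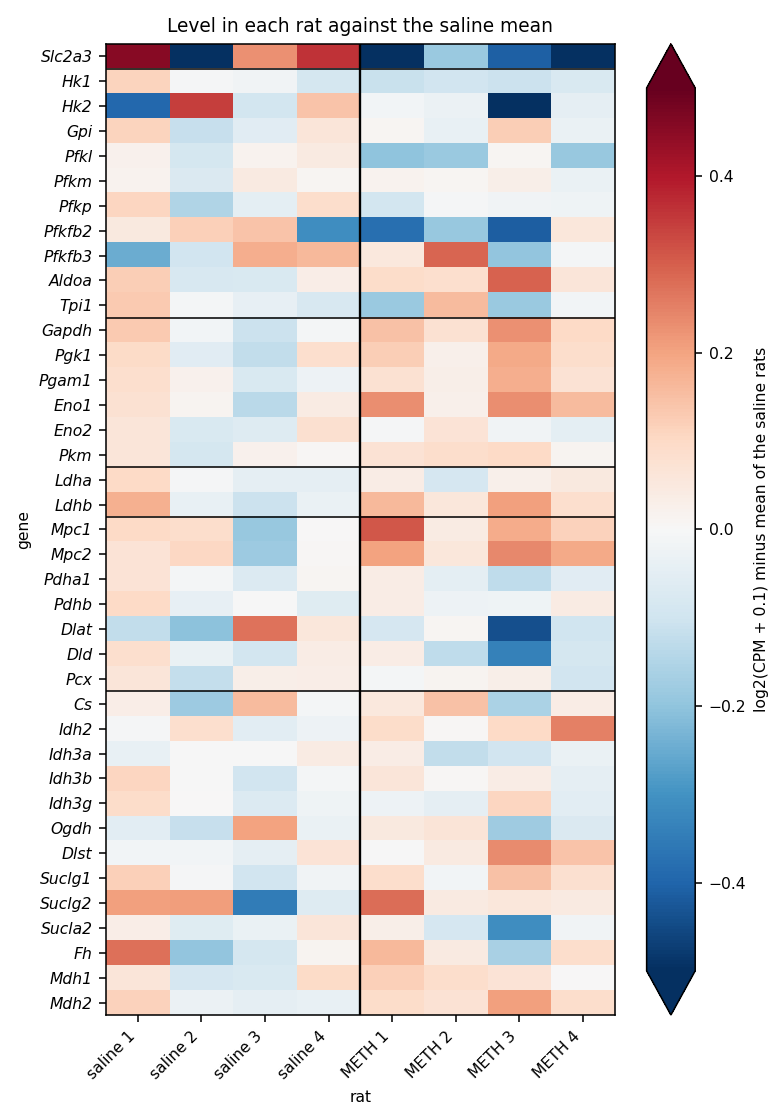
Level of each member (rows, in pathway order, with lines between roles) in each rat (columns) as log2 of CPM plus 0.1, minus the mean of the saline rats; red is above and blue below, and colours stop at 0.5 in either direction, which some rats pass for Slc2a3 and Hk2. Saline 1 is mostly red and saline 3 mostly pale blue, and the lower glycolysis rows are reddest in METH 3 and METH 1.

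The other genes of glucose metabolism were taken from a list of 92 genes that feed, branch from or regulate this route, of which 87 were listed and 74 tested. Of the 74, 1 was called, higher in METH rats, and at an unadjusted p below 0.05 were 2 higher and 4 lower genes. Of all genes tested, 0.516% were called, and at that p 6.26% were higher and 4.88% lower. In both directions together, 8.11% of the 74 genes were at that p, beside 11.1% of all genes tested. Their median log2 fold change was 0.0062, with 39 positive and 35 negative values. The called gene was Pdp1, the phosphatase that removes phosphate from pyruvate dehydrogenase and so activates it. It was at 145, 133, 169.97 and 182 CPM in saline rats and at 275, 256, 259.6 and 247 CPM in METH rats. Every METH rat was above every saline rat. The log2 fold change was 0.72 (SE 0.096, 95% interval 0.51 to 0.93, FDR = 0.00276, edgeR), and it was 0.65 to 0.80 with an FDR of at most 0.0112 when any rat was left out.

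Pdk4, a kinase that adds the phosphate Pdp1 removes, was at 2.52, 3.30, 3.48 and 2.93 CPM in saline rats and at 4.94, 4.38, 7.62 and 4.06 CPM in METH rats. Its groups did not overlap, but with an FDR of 0.263 it was not called (log2 fold change 0.77, SE 0.25, unadjusted p = 0.0076, edgeR), and without METH 3 its log2 fold change was 0.54. The kinases Pdk1, Pdk2 and Pdk3 had log2 fold changes of -0.08, 0.11 and -0.14, and the other phosphatase gene, Pdp2, had -0.23, with FDR values of 0.606 to 0.796. The 4 subunit genes they act with, Pdha1, Pdhb, Dlat and Dld, stood at the levels given above, none of them called.

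**Figure D4:**
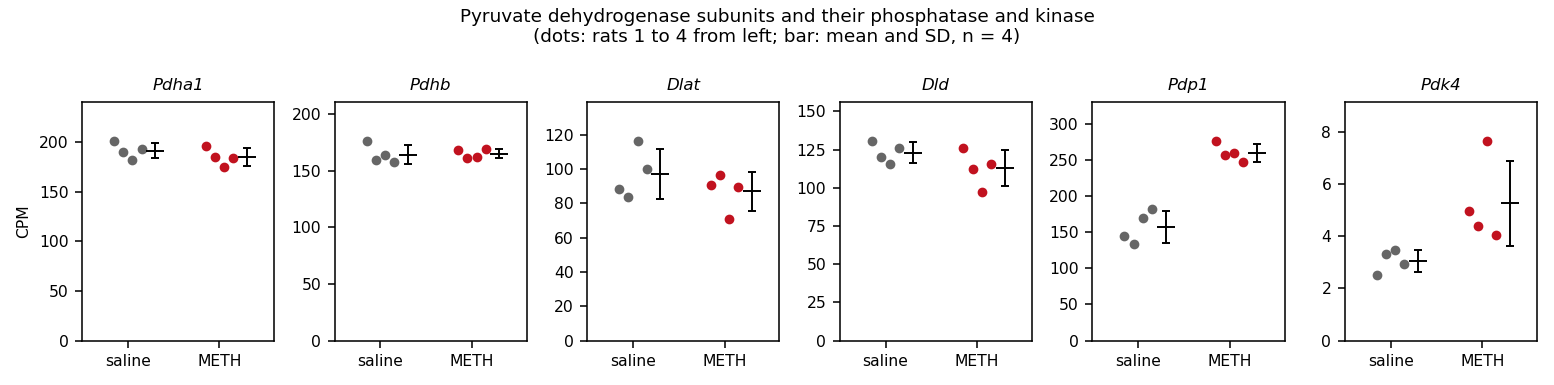
Level in CPM, on vertical axes from 0, of the pyruvate dehydrogenase subunit genes Pdha1, Pdhb, Dlat and Dld, the phosphatase gene Pdp1 and the kinase gene Pdk4 in each rat (saline grey, METH red, rats 1 to 4 from left to right, bar for mean and SD, n = 4). The 4 subunit panels overlap, while the METH rats lie above the saline rats for Pdp1, at 247 to 275 against 133 to 182 CPM, and for Pdk4.

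The lower genes at an unadjusted p below 0.05 belonged to side branches and none was called. H6pd, which starts the pentose phosphate pathway in the endoplasmic reticulum, was at 9.22 ± 0.89 CPM (SD, n = 4) in saline and 6.68 ± 0.79 CPM in METH rats without overlap (log2 fold change -0.46, FDR = 0.296). Gpd2, the mitochondrial glycerol phosphate dehydrogenase, had -0.53 (FDR = 0.430), and Pgm2l1, which makes glucose 1,6-bisphosphate, -0.22 (FDR = 0.428). In the lists with no gene at that level, the largest differences by size were -0.55 for Slc2a4, the insulin-dependent glucose transporter (FDR = 0.509), -0.36 for Pgam2 of the glycolytic isoforms (FDR = 0.561) and -0.17 for the cytosolic isocitrate dehydrogenase gene Idh1 (FDR = 0.627). Slc2a1, the glucose transporter GLUT1 of the blood-brain barrier and glia, was at 291 ± 32.0 CPM in saline and 323 ± 37.2 CPM in METH rats (FDR = 0.562), and was named after its values were seen. So were the succinate dehydrogenase genes Sdha, Sdhb, Sdhc and Sdhd, whose log2 fold changes were -0.09, 0.11, 0.09 and 0.0042, with no gene called.

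Markers of the cell types in the tissue are given beside these values, as RNA levels and not as numbers of cells. Of 8 neuronal markers 4 had a positive and 4 a negative fold change, with Snap25 at 1265 CPM in saline and 883 CPM in METH rats (log2 fold change -0.52, FDR = 0.0632), Map2 at -0.49 (FDR = 0.348) and, in the other direction, Nefm at 0.18 and Nefl at 0.15. Of 10 projection neuron markers 6 were positive and 4 negative, from -0.15 for Pde10a to 0.25 for Ppp1r1b (FDR = 0.328), with Drd2 at 0.19 (FDR = 0.421) and Drd1 at -0.03. Astrocyte markers were again 4 positive and 4 negative, from -0.19 for Slc1a2 to 0.44 for Gjb6 (FDR = 0.137). Of 8 oligodendrocyte markers 2 were positive and 6 negative, from -0.35 for Ermn (FDR = 0.313) to 0.08 for Mbp.

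Of 8 microglial markers 2 were positive, C1qa at 0.11 and C1qb at 0.09, and 6 negative. Among the latter Csf1r had -0.22 (FDR = 0.398) and Cx3cr1 was called lower (-0.73, FDR = 0.0408), a call lost (FDR = 0.0569 to 0.144) under the replicate block or without saline 2, saline 3, saline 4, METH 1, METH 3 or METH 4. All 7 endothelial markers were negative and none was called, with -0.38 for Slco1c1, -0.34 for Tek and -0.21 for Flt1 (FDR = 0.132 to 0.441). With DESeq2, which called more genes of the whole table than edgeR, Snap25, Slco1c1 and Gjb6 passed the threshold (FDR = 0.00128, 0.0194 and 0.0263). With edgeR these 3 genes did not pass it (FDR = 0.0632, 0.132 and 0.137). Of the choroid plexus markers only Folr1 was tested (0.45, FDR = 0.525), and the 3 red cell markers tested were Hbb at 0.05, Hbb-b1 at 0.10 and the much lower Alas2 at -0.25 (FDR = 0.839).

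Summed over each list, the groups overlapped in astrocytes (3418 to 4091 CPM in saline, 3423 to 4308 CPM in METH rats), oligodendrocytes (13445 to 19282 and 12648 to 18796 CPM), microglia (344 to 405 and 309 to 375 CPM), endothelial cells (489 to 692 and 482 to 510.1 CPM) and red blood cells (133 to 256 and 126 to 241 CPM). The groups did not overlap in the sum of the 4 choroid plexus markers, which was near 0. It was 2.63 to 4.15 CPM in saline and 4.43 to 5.92 CPM in METH rats. Most of it was Folr1, whose own groups overlapped. Means in saline and METH rats were 0.05 and 0.90 CPM for Ttr, 0.12 and 0.17 CPM for Kcnj13, and 0.57 and 0.44 CPM for Aqp1. Whether cell composition differed between the groups, and what part it would have in the values of the members, was not tested.

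Sequence copies limit some of these values. RefSeq names 203 pseudogenes of 16 members in the GRCr8 assembly, among them 81 of Gapdh, 31 of Eno1, 30 of Ldha, 19 of Pkm, 13 of Pgam1, 9 of Aldoa, 8 of Pgk1 and 3 of Tpi1, and only 1 of them, a Gapdh copy, is a row of the count table. How reads that match both a gene and a copy were counted is not given in the sources used here, so the levels of these members are uncertain in a way the spread between rats does not show.

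RefSeq promoter sequences, the 250 bases before the gene start in GRCr8, were found for 35 of the 39 members. The counts themselves were made on rn6. The core ACGTG of the hypoxia response element occurred on either strand in 10 of the 35 (28.6%), in 6 of 17 from uptake to lactate (35.3%) and in 4 of 18 from pyruvate entry onward (22.2%), beside 16.6% of all 33469 rat promoters in the table and 20.2% of the 11682 that belong to genes of the count table. The letters TGACG of the cAMP response element occurred in 16 of 35 (45.7%), beside 18.2% and 24.9%. The GC box GGGCGG occurred in 57.1% beside 30.5% and 50.7%, and TGCGCA of the NRF1 motif in 14.3% beside 6.14% and 10%. Member promoters had a median GC content of 60.0%, all promoters 51.2% and those of counted genes 58.4%, and all 4 motifs hold CG. ACGTG and TGACG can share letters where they run together, and a match is a run of letters, not a site shown to be used.

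The promoters of 3 members are printed, in lower case with ACGTG and TGACG, on either strand, in capitals. None of the 3 passed the test between METH and saline rats. Eno1, at chr5:166002617-166002866 on the plus strand, is the member with the lowest p (FDR = 0.431, edgeR) and holds TGACG but no ACGTG. Ldha, at chr1:106507842-106508091 on the plus strand, and Ogdh, at chr14:85363781-85364030 on the plus strand, are a glycolytic and a mitochondrial member that hold both. Gapdh, Dlat and Idh3g also hold both, with fewer matches in total than Ldha or Ogdh.
Eno1: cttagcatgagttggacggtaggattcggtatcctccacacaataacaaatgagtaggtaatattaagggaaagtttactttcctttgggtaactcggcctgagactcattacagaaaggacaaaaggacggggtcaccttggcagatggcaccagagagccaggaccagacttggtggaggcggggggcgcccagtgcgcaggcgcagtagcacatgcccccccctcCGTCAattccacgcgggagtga
Ldha: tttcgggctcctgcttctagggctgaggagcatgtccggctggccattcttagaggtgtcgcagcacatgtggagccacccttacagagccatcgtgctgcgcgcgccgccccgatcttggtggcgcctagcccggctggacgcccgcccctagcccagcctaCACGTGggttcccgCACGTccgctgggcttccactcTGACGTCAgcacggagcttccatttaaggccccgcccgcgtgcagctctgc
Ogdh: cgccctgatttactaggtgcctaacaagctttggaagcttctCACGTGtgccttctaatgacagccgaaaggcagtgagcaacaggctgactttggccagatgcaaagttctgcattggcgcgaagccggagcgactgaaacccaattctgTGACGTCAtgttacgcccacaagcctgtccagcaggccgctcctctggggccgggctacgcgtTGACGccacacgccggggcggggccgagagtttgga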

How the data were processed

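Poly(A) mRNA of the striatum of 8 rats was sequenced with paired-end reads. The authors removed adapters (Cutadapt 1.18), mapped the reads to the rn6 genome (STAR 2.7.0e) and used featureCounts (Subread 1.6.4) for the deposited raw counts per gene and rat. Annotation, strand setting and the handling of reads with several matches are not given in the sources used here, nor is the test the authors used for genes. Whether rats were sequenced in batches is not given either.

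Counts were filtered with filterByExpr (minimum count 10, minimum total 15), scaled by TMM and compared between groups by the quasi-likelihood F-test in edgeR 4.0.16 (R 4.3.3), with Benjamini-Hochberg adjustment over all 12014 genes tested. Log2 CPM for plots of variation and permutation used a prior count of 2. A standard error is the size of the log2 fold change divided by the square root of F, and its interval uses the t distribution of the fit. Single genes were also tested by two-sided exact permutation. DESeq2 1.42.0 and limma 3.58.1 (voom) served as alternatives, with other scalings, filters, a replicate block and each rat left out. The fit was tested on simulated counts.

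The members, gene lists and tests were chosen with earlier results of these data known. By rule, all members were named, and of the other lists the genes called or at an unadjusted p below 0.05, or else the gene with the largest difference. Outside this rule, Pdk1, Pdk2, Pdk3, Pdp2, Slc2a1, the succinate dehydrogenase genes and several markers, among them Nefm, Nefl and Drd1, were also named. Values in every rat were given for members called, at an unadjusted p below 0.05, with groups that do not overlap, or leading their role. Values in every rat of Gapdh and Pfkl were added after seeing them. From the pathway list, 2 names were dropped as second names of a gene already taken. Some genes of the pathway list are counted but not reported here by name. Same-numbered rats are different animals. Within groups, every pair of libraries was further apart than sampling of reads gives (chi-square over its degrees of freedom 10.1 to 27.6), so each rat counted as a replicate. A count of 3, taken as the floor of detection, is 0.141 to 0.165 CPM.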

Additional observations from a re-analysis of the deposited data

Results flagged for a closer look

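In groups of 4 rats, a level was marked where the gap between the highest or lowest rat and its neighbour took more than 0.829 of the range of the group in log2 CPM, which chance gives in about 1 in 20 groups. This held for 9 of the 122 groups of 4 examined, and for 8 of the 78 groups of members.

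METH 3 was set apart in 4 members. It was the lowest METH rat for Hk2 (5.82 CPM, gap share 0.9415) and the highest for Pfkl (204 CPM, gap share 0.9409), Aldoa (2229 CPM, gap share 0.8671) and Mdh2 (315 CPM, gap share 0.8405). METH 2 was the lowest METH rat for Ldha (397 CPM, gap share 0.8407) and for the endothelial marker Tek (21.3 CPM, gap share 0.8921), and METH 1 the highest for Suclg2 (73.3 CPM, gap share 0.9516). Among saline rats, saline 2 was lowest for Slc2a3 (0.40 CPM, gap share 0.8489) and saline 1 highest for Mdh2 (295 CPM, gap share 0.9181). Without METH 3 the log2 fold change was -0.06 for Hk2, -0.19 for Pfkl and 0.08 for Aldoa, with FDR values of 0.970, 0.488 and 0.849 (edgeR quasi-likelihood test). The cause of these gaps was not tested.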

How the results depend on the processing

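No member was called under any of the 18 alternatives, and the lowest member FDR with all rats kept was 0.363. The count of members higher at an unadjusted p below 0.05, 1 as reported, was 0 with upper-quartile scaling, total-count scaling, every gene with at least 1 count, the edgeR likelihood ratio test and the replicate block, and 0 to 4 with a rat left out, when 4.19% to 7.49% of all genes tested were higher. The count lower, 0 as reported, was 1 with total-count scaling (Pfkl, log2 fold change -0.18, FDR = 0.369) and 0 to 1 with a rat left out, when 3.33% to 5.59% of all genes tested were lower. Members whose groups did not overlap, 0 as reported, numbered 1 with total-count scaling (6.51% of all genes tested) and 0 to 5 with a rat left out (8.32% to 13.4% of all genes, and 10.8% without saline 1, where 5 members did). Over all genes, 62 calls became 186 with DESeq2, 170 with the likelihood ratio test, 37 with the replicate block and 37 to 70 with a rat left out, with 37 without saline 2. The replicate block took no member across the threshold for a call. The deviations of rats numbered 1 to 4 from their group means correlated across genes at 0.010, -0.19, -0.20 and 0.036 between METH and saline. Not every rat correlated best with its own number. Whether same-numbered rats shared a batch or handling cannot be told from these values. Why these counts moved was not tested.

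Fold changes near 0 changed sign. Upper-quartile scaling gave log2 fold changes of -0.0021 for Pfkm, -0.0012 for Ldha and -0.00027 for Pdhb. Total-count scaling moved the median of the members to -0.023 and gave -0.023 for Gpi, -0.030 for Pfkm, -0.00098 for Pfkfb3, -0.029 for Ldha, -0.028 for Pdhb, -0.016 for Cs, -0.022 for Idh3b and -0.0053 for Fh. Eno2 was at 0.00033 with every gene of at least 1 count and at 0.0021 with limma-voom. With a rat left out, log2 fold changes ran from -0.023 to 0.052 for Gpi, -0.018 to 0.020 for Pfkm, -0.059 to 0.11 for Pfkfb3, -0.025 to 0.026 for Eno2, -0.0098 to 0.041 for Ldha, -0.013 to 0.042 for Pdhb, -0.054 to 0.011 for Pcx, -0.039 to 0.075 for Cs, -0.019 to 0.050 for Idh3b, -0.041 to 0.028 for Idh3g, -0.073 to 0.035 for Ogdh, -0.014 to 0.16 for Suclg2, -0.035 to 0.13 for Fh and -0.56 to 0.14 for the marker Alas2. The other members and genes named by the rule kept their sign throughout. Among named genes with all rats kept, 7 values of Snap25, Gjb6 and Slco1c1 passed the threshold under an alternative (FDR from 0.00128) that had not passed it as reported, and Cx3cr1 lost its call under the replicate block. With a rat left out 2 values of Slco1c1 and Snap25 passed it (FDR = 0.0368 and 0.0381), and Cx3cr1 lost its call in 6.

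Low counts limit Slc2a3 (8 to 26 per rat) most, then Hk2 (103 to 219) and Tpi1 (143 to 216). With 4 rats a group, the standard errors of the members had a median of 0.074 on the log2 scale. The intervals and p-values of the fit cover the spread between these rats, while the floor in CPM covers counting error only.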

Other observations

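Tpi1 and Eno2, which were listed at low counts for enzymes that every cell or every neuron uses, lie close together in the gene order of the GRCr8 gene table, and this was noticed after their values were seen. The median count over the 8 rats was 2425.5 for Phb2, 182 for Ptpn6, 23.5 for Grcc10, 155.5 for Atn1, 308.5 for Eno2, 8 for Lrrc23, 2.5 for Spsb2, 183.5 for Tpi1 and 4317.5 for Usp5, in that order along the chromosome. None of those tested passed the threshold between METH and saline rats, with FDR values of 0.367 for Ptpn6 and above for the others. The cause of the low counts was not tested.

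Ratios of paired genes are given as a description, with no test and no scaling for length. The log2 ratio of Eno1 to Eno2 counts was 5.74 to 5.90 in saline rats and 5.76 to 6.06 in METH rats. The ratio of Suclg2 to Sucla2 was -1.82 to -1.23 in saline and -1.44 to -1.13 in METH rats, that of Pfkfb3 to Pfkfb2 0.10 to 0.87 and 0.33 to 0.88, that of Hk2 to Hk1 -5.94 to -5.09 and -5.89 to -5.34, that of Pfkp to Pfkm -1.02 to -0.83 and -1.04 to -0.92, that of Mpc2 to Mpc1 -0.79 to -0.74 and -0.87 to -0.68, and that of Mdh2 to Mdh1 -1.49 to -1.30 and -1.38 to -1.22, with overlap in each.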
